A study of Mus musculus with 4 samples.

Results

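The genes described here make cholesterol, sense it, and move it out of cells. They were chosen by name, as 31 genes of cholesterol synthesis, of the SREBP system and of the LXR pathway, among 19421 genes measured in whole mouse retina. Of these, 29 had a probe set with their symbol alone, and Acat2 and Nr1h2 were not analysed here. The knockout retinas came from Nrlflox/flox; CAG-CreERTM mice and the control retinas from Nrlflox/+; CAG-CreERTM mice, so the controls also carried 1 floxed allele and the Cre recombinase. Both genotypes received 4-hydroxytamoxifen by intraperitoneal injection each day from postnatal day 42 to 44, and retinas were taken on day 63, which was 19 days after the last injection. CAG is a promoter active in most cell types, so recombination was not limited to rods by the driver. Nrl is the transcription factor that directs photoreceptors to the rod fate. Each genotype had 2 arrays, and each array held RNA pooled from 4 retinas of 2 animals.

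Cells make cholesterol from acetyl-CoA through mevalonate, farnesyl diphosphate and squalene. When sterols in the endoplasmic reticulum run low, SCAP carries the SREBP proteins to the Golgi, where they are cut to release transcription factors that turn on the synthesis genes. INSIG proteins hold SCAP back when sterols are plentiful. LXR receptors bind oxysterols and turn on genes of efflux, among them Abca1, Abcg1 and Apoe. The retina both makes cholesterol and takes it up from the circulation, and its Müller glia secrete apolipoprotein E.

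Promoter windows are shown for the 5 genes with the smallest p-values and for Hmgcs1, the enzyme at the entry to the mevalonate branch, so that the motifs of both arms can be seen. The windows run from 250 bases before to 50 bases after the annotated start, 5′ to 3′ along the gene, from RefSeq on GRCm38.p6. Capitals mark the motifs searched on both strands, which were the sterol regulatory element TCACNCCAC bound by SREBP, the CCAAT box bound by NF-Y, the E-box CACGTG, and DR4, a relaxed form of the direct repeat bound by LXR with RXR. No 2 matches overlapped in these windows. The windows lie at these positions: Hmgcs1 at chr13:119690101-119690400 on the plus strand, Cyp51 at chr5:4104648-4104947 on the minus strand, Insig1 at chr5:28071162-28071461 on the plus strand, Idi1 at chr13:8885356-8885655 on the plus strand, Pmvk at chr3:89454291-89454590 on the plus strand and Abca1 at chr4:53159846-53160145 on the minus strand. Pmvk alone of these 6 genes has another annotated start in the table, with the window chr3:89459321-89459620 on the plus strand, which holds no match to any motif searched and is not printed.
Hmgcs1: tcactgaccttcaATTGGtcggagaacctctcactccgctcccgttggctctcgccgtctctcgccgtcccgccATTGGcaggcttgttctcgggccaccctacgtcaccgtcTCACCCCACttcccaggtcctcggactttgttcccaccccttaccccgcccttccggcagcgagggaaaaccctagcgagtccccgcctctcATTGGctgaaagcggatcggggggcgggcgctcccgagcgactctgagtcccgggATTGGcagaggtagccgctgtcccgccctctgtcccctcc
Cyp51: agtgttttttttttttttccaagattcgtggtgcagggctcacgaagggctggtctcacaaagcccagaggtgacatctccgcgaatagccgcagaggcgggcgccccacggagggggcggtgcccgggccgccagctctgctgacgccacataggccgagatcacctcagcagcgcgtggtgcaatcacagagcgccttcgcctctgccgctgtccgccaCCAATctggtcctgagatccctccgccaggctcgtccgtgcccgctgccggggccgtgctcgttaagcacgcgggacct
Insig1: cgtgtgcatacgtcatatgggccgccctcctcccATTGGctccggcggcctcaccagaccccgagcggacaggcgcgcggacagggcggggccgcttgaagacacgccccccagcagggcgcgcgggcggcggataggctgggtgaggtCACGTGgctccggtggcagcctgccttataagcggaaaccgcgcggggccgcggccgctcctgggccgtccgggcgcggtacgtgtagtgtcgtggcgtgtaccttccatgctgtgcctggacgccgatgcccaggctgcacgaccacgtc
Idi1: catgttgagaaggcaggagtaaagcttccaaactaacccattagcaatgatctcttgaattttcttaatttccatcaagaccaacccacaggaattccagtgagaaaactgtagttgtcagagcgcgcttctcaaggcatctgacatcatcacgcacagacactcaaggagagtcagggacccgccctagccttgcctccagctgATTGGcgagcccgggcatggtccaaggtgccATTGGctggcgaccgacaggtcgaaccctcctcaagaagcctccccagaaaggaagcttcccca
Pmvk: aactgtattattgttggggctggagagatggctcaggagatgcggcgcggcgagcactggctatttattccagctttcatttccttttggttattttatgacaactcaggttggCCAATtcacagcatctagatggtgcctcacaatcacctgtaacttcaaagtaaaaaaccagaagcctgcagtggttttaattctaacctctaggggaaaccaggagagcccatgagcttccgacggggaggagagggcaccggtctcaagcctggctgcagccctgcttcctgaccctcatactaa
Abca1: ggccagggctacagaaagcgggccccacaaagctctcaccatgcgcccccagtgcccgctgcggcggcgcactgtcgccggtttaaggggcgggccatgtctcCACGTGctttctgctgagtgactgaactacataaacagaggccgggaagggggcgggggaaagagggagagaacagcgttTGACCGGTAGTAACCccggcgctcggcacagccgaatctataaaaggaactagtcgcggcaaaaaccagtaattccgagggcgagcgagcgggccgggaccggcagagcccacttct

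The promoter table matched 24 of the 31 genes, and a gene with several windows was counted where any of them held the motif. A CCAAT box stood in at least 1 window of 13 of 14 synthesis genes, against 41.1% of the 27025 genes with a window, and the exception was Acat2. Both efflux genes with a window, Abca1 and Apoe, held none. The sterol regulatory element occurred in Hmgcs1 alone of the 24 genes, at position −137 from the start, and in 1.44% of all genes. The E-box occurred in 3 of the 14 synthesis genes and in Insig1, Scap and Abca1, against 8.09% of all genes. The DR4 repeat occurred in Abca1, at position −67, and in 1 window of Srebf1, at position −182, against 0.226% of all genes. These are matches of letters, chosen with the known regulators of the pathway in mind, and no binding was measured.

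**Figure D1:**
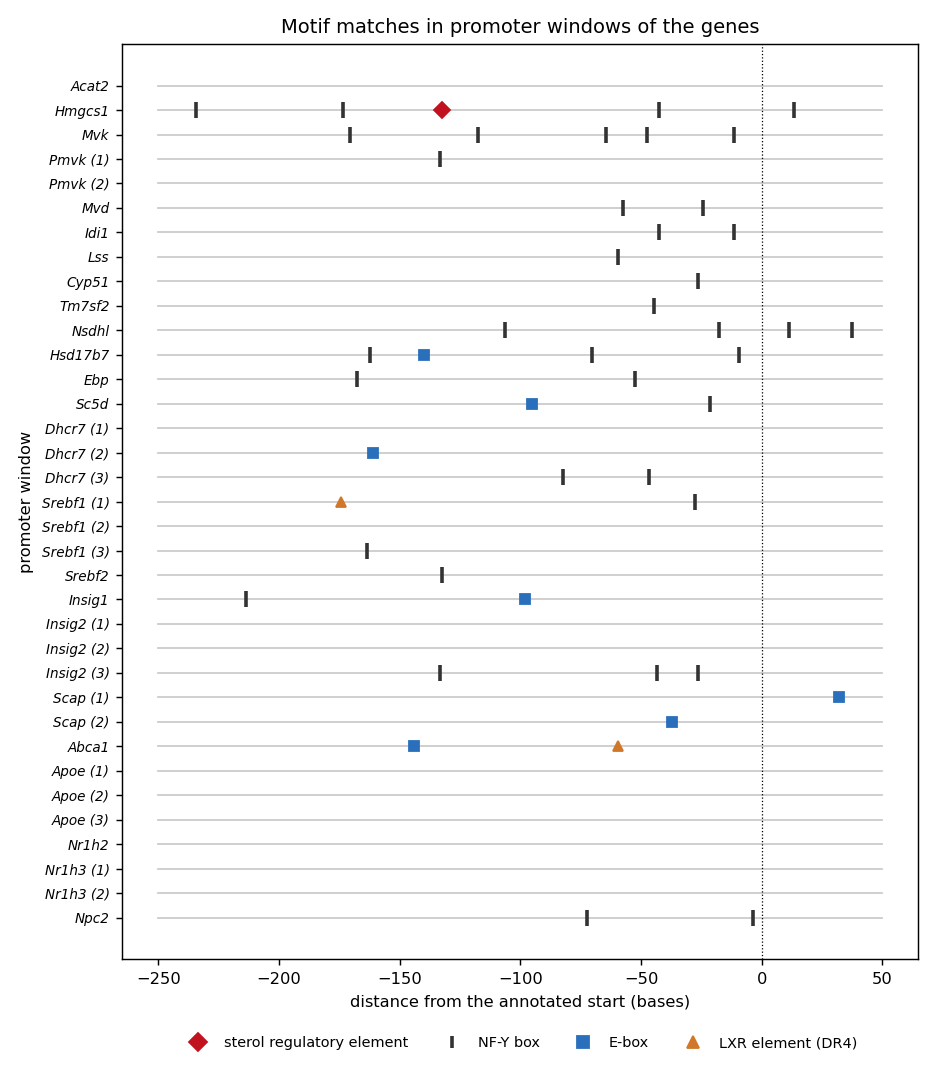
Motif matches in the promoter windows of 24 genes. The horizontal axis gives the distance from the annotated start in bases, each grey line is 1 window (genes with several starts have several), and symbols mark the middle of a match. NF-Y boxes stand in at least 1 window of 13 of 14 synthesis genes, and the LXR repeat stands in Abca1 and in 1 window of Srebf1.

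In knockout retinas both arms of sterol handling, synthesis and efflux, showed small differences from control. The synthesis genes lay mostly a little below control, with a median log2 difference of −0.11, and the 3 efflux genes lay above it, with a median of 0.24. Of these 3, Abcg1 differed by only 0.03 with overlapping groups, and the interval of Apoe included 0. The 12 other efflux and LXR genes had a median of 0.01. Phosphomevalonate kinase, Pmvk, went against the other synthesis genes and had the largest difference of all 29 genes, at 0.78. No gene of the 29 passed the correction over all genes (limma, Benjamini-Hochberg, smallest adjusted p = 0.0739), where 0.201% of all genes did. At an unadjusted p under 0.05 there were 5 of 29, or 17.2%, against 7.07% of all genes. These were Pmvk and Abca1, which were higher in the knockout, where 3.71% of all genes had such a p, and Idi1, Cyp51 and Insig1, which were lower, where 3.37% had one. Idi1 was counted by its brighter probe set, and its other probe set lay above control, at a log2 difference of 0.77. The 29 genes were chosen with earlier results of these data known, so their share is not independent of those results.

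The arrays were comparable in scale, with medians between 5.99 and 6.04 on the log2 scale. Nrl itself stood at 7.57 and 7.05 in knockout and at 8.21 and 8.13 in control, a log2 difference of −0.86 (SE 0.18, limma adjusted p = 0.289). The 5 measured rod markers had a summed linear signal of 6955 and 7257 in knockout and 15045 and 14632 in control. Gnat1, the rod transducin subunit, stood at 12.4% of control and carried most of this, the other 4 stood between 56.5% and 86.0% of control, and without Gnat1 the sums were 6252 and 6393 in knockout and 8627 and 8513 in control. In bulk tissue fewer cells of a type and less RNA per cell cannot be told apart. Xist, an RNA of female cells, separated the pools by replicate number. It had 4.07 in knockout replicate 1 and 4.09 in control replicate 1, against 10.66 and 10.47 in the replicates 2. Sex and replicate number cannot be told apart, and differences are therefore also given within each number.

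**Figure D2:**
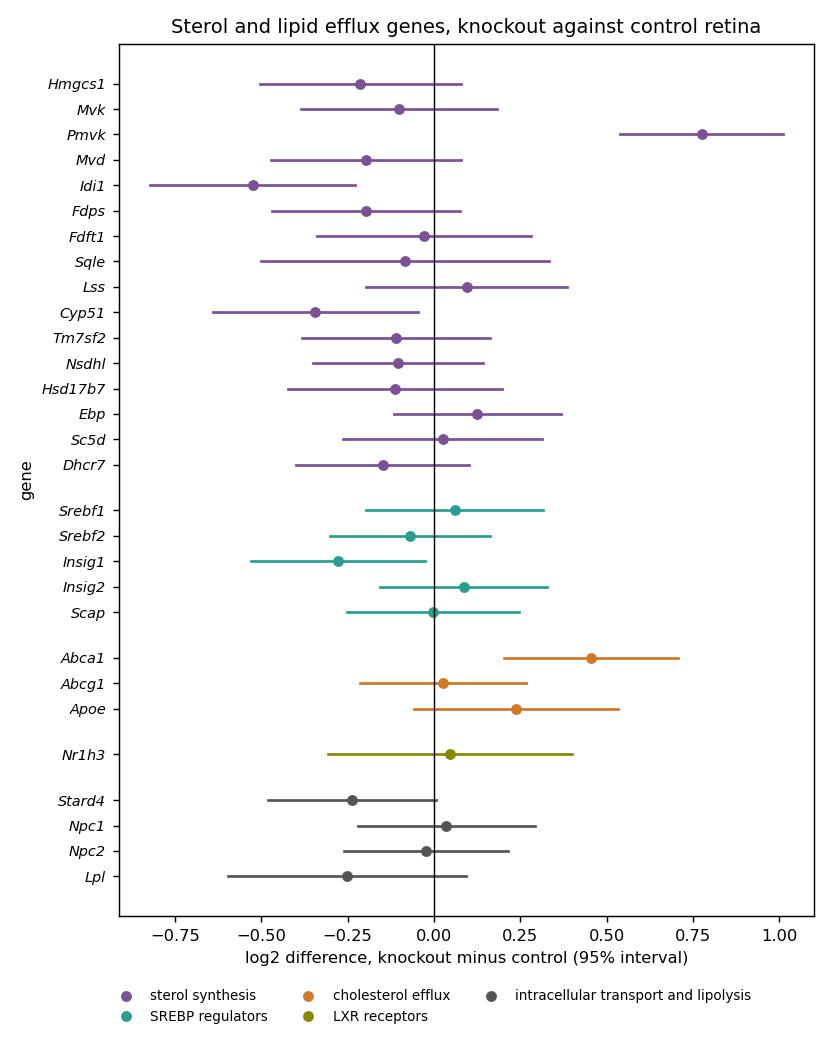
Log2 difference between knockout and control for the 29 measured genes. Points are differences of the 2-array means, and bars are 95% confidence intervals from limma, on a log2 axis. The intervals of Pmvk and Abca1 lie above 0, those of Idi1 (at the probe set used), Cyp51 and Insig1 lie below it, and the other 24 include 0.

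Synthesis starts with the 6 measured genes that lead to farnesyl diphosphate. Among them 5 lay below control and 1 above, with a median of −0.20, and this grouping was made after the values were seen. Hmgcs1, which joins acetyl-CoA and acetoacetyl-CoA into HMG-CoA, had 8.07 and 7.88 in knockout and 8.27 and 8.11 in control. Both knockout arrays lay below both control arrays, though the nearest pair was close. Its log2 difference was −0.21 (SE 0.12, 95% interval −0.50 to 0.08), with −0.20 in replicate 1 and −0.23 in replicate 2. Its size rested on single arrays, at −0.12 without knockout replicate 2, −0.13 without control replicate 1 and −0.31 without knockout replicate 1. Its sterol regulatory element is the one printed above.

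Pmvk adds the second phosphate to mevalonate. It had 7.07 and 7.04 in knockout and 6.25 and 6.30 in control, so the groups stood far apart relative to the spread within them. The means were 7.05 ± 0.02 in knockout and 6.28 ± 0.04 in control (SD, n = 2 each), which put the knockout signal at 171% of control. The log2 difference was 0.78 (SE 0.10, 95% interval 0.54 to 1.01), with 0.82 in replicate 1 and 0.73 in replicate 2. It ranked 46 by p among all 19421 genes, and its adjusted p of 0.0739 (limma) missed the threshold of 0.05. It passed in 2 other settings, at 0.0124 when genes below the median of mean signal were removed, and at 0.0135 with a variance trend. Over all 10 alternatives the adjusted p ran from 0.0124 to 0.540. Of its 2 windows, the one printed above holds a CCAAT box and no other motif searched, and the other holds none.

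Idi1, the isopentenyl diphosphate isomerase, gave values that depended on the probe set. The brighter one, which represents the gene here, had 6.48 and 6.32 in knockout and 7.03 and 6.82 in control, with both knockout arrays below both controls. Its log2 difference was −0.53 (SE 0.12, 95% interval −0.82 to −0.23, limma adjusted p = 0.358), with −0.55 and −0.50 in replicates 1 and 2. The other probe set had 5.73 and 6.39 in knockout and 5.73 and 4.85 in control, a log2 difference of 0.77 (SE 0.33). The mean of both gave 0.12, so the direction of Idi1 is not settled by these arrays. The annotation lists the same transcripts for both, and the place of their probes in the transcript was not analysed here.

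The remaining genes of this stretch had small differences. Mvk, mevalonate kinase, had a log2 difference of −0.10, Mvd, the decarboxylase that makes isopentenyl diphosphate, −0.20, and Fdps, farnesyl diphosphate synthase, −0.20. In Mvd and Fdps both knockout arrays lay below both control arrays, and in Mvk the groups overlapped. The limma adjusted p of these 3 genes lay between 0.815 and 0.934.

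From squalene on, 7 of 10 measured genes lay below control and 3 above, with a median of −0.09. Cyp51, which removes a methyl group from lanosterol, was the furthest of them from control. It had 7.56 and 7.29 in knockout and 7.78 and 7.75 in control, and the spread of the knockout arrays was wider than that of the controls. This was a log2 difference of −0.34 (SE 0.12, 95% interval −0.64 to −0.05, limma adjusted p = 0.642), or 78.8% of the control signal. It measured −0.22 in replicate 1 and −0.46 in replicate 2. Without knockout replicate 2 it was −0.21, and its unadjusted p stayed under 0.05 only without knockout replicate 1 among the 4 fits that left out 1 array.

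Sqle, squalene epoxidase, a rate-limiting enzyme of the late pathway, had 7.95 and 7.67 in knockout and 8.11 and 7.69 in control. The arrays fell together by replicate number and the genotypes overlapped. The log2 difference of −0.08 (SE 0.17, 95% interval −0.50 to 0.33) turned sign when 1 library was left out, to 0.06 without knockout replicate 2 and to 0.12 without control replicate 1.

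The other late enzymes had log2 differences between −0.15 and 0.13. Fdft1, squalene synthase, had −0.03 and its other probe set −0.13, and Lss, which closes the sterol rings, had 0.09. Of the enzymes that then modify the ring system, Tm7sf2 and Nsdhl had −0.11 and −0.10, Hsd17b7 had −0.11, Ebp 0.13 and Sc5d 0.03. Dhcr7, which reduces dehydrocholesterol to cholesterol, had −0.15. Nsdhl and Dhcr7 had both knockout arrays below both controls, Ebp had both above, and the others overlapped. The signals of Lss and Tm7sf2 lay below the array medians on every array.

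Counted together, with Idi1 at its brighter probe set, 12 of the 16 measured synthesis genes lay below control and 4 above. Of all genes, 50.9% lay below. In 7 of 16 both knockout arrays lay below both control arrays, or 43.8%, against 18.4% of all genes, and in 2 they lay above, against 17.0% of all genes. The mean difference was −0.07, and −0.13 without Pmvk. By replicate number the mean was −0.08 in replicate 1 and −0.07 in replicate 2. The median over all genes was −0.0026 on the same scale.

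The SREBP system itself showed little difference apart from Insig1. Insig1, which holds SCAP in the endoplasmic reticulum and is itself a target of SREBP, had 7.55 and 7.43 in knockout and 7.80 and 7.73 in control. Both knockout arrays lay below both controls. The log2 difference was −0.28 (SE 0.10, 95% interval −0.53 to −0.03, limma adjusted p = 0.656), with −0.25 and −0.31 in replicates 1 and 2, which put it at 82.5% of the control signal. Its unadjusted p was not under 0.05 in any of the 4 fits that left out 1 array, where the difference ran from −0.34 to −0.22. Insig2, its relative, had 0.09, with both knockout arrays above both controls.

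Srebf2, which encodes the SREBP that mainly drives cholesterol synthesis, had 6.540 and 6.543 in knockout and 6.59 and 6.63 in control. The 2 knockout arrays nearly coincided below the controls, at a log2 difference of −0.07 (SE 0.10, 95% interval −0.30 to 0.16). Srebf1, which encodes the SREBP of fatty acid synthesis and is itself an LXR target, had 0.06 (95% interval −0.20 to 0.32). Scap, the escort protein, had −0.0026 (95% interval −0.25 to 0.25). The activity of SREBP rests on cleavage of the protein, which these arrays do not measure.

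**Figure D3:**
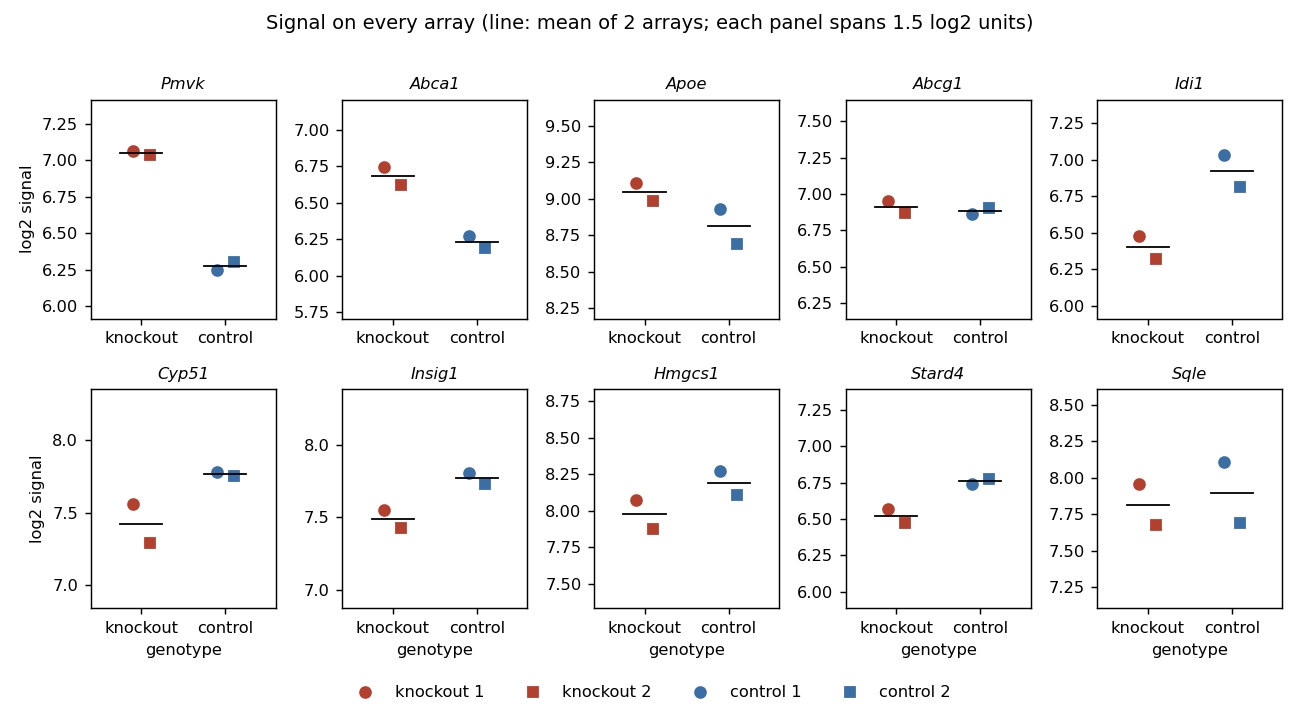
Log2 signal on every array for 10 genes, with knockout at the left and control at the right of each panel. Circles are replicate 1, squares are replicate 2, and black lines are means of 2 arrays. Pmvk, Abca1 and Apoe lie higher in knockout on both arrays, Idi1 (at the probe set used), Cyp51, Insig1, Hmgcs1 and Stard4 lie lower, and Abcg1 and Sqle overlap.

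In the efflux arm, Abca1 stood apart from Abcg1. Abca1 is the transporter that loads cholesterol and phospholipid onto lipid-poor apolipoproteins. It had 6.74 and 6.62 in knockout and 6.27 and 6.19 in control, with the groups well separated. Knockout exceeded control by 0.45 on the log2 scale (SE 0.10, 95% interval 0.20 to 0.71, limma adjusted p = 0.355), or 137% of the control signal, and it was close in the replicates, at 0.47 and 0.44. Abcg1, which passes cholesterol to lipoprotein particles, had 6.95 and 6.87 in knockout and 6.86 and 6.91 in control. These overlapped, with a log2 difference of 0.03 (SE 0.10, 95% interval −0.21 to 0.27) that was −0.02 without knockout replicate 1.

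Apoe, the apolipoprotein that carries lipid between retinal cells, had 9.11 and 8.99 in knockout and 8.93 and 8.69 in control. Both knockout arrays lay above both controls, though the nearest pair was close. Its log2 difference was 0.24 (SE 0.12, 95% interval −0.06 to 0.53, limma adjusted p = 0.782), with 0.18 in replicate 1 and 0.30 in replicate 2. Without control replicate 2 it was 0.12, and without control replicate 1 it was 0.36. As Apoe is the middle of the 3 efflux genes, the median of the list took the same values.

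Markers of reactive gliosis and of microglia and macrophages lay mostly above control, as Abca1 and Apoe did, and these cells also express both genes. These marker lists were chosen with earlier results of these data known, so their direction is not independent of those results. All 8 measured genes of reactive gliosis lay above control, 4 of them called, where 27 of all 19421 genes were called higher. Their summed linear signal was 997 and 1109 in knockout and 484 and 459 in control. Of 12 microglial and macrophage genes 9 lay above control, 2 of them called, with sums of 1357 and 1288 in knockout and 761 and 772 in control. Tmem119, Trem2 and Itgam lay below control, at −0.40, −0.07 and −0.04. In Tmem119 and Itgam both knockout arrays lay below both controls. The 6 Müller glia identity genes gave sums of 1340 and 1284 in knockout and 1286 and 1306 in control, and a median log2 difference of 0.0054, with Vim at 0.56, Glul at −0.37 and Rlbp1 at −0.32. The part of these cells in the difference of Abca1 and Apoe was not tested.

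Among the LXR receptors only Nr1h3, which encodes LXRα, was measured. It had 5.182 and 5.398 in knockout and 5.083 and 5.403 in control, and the replicates differed more than the genotypes. The log2 difference was 0.05 (SE 0.15, 95% interval −0.31 to 0.40). Its signal lay below the array medians, and a low signal on these arrays cannot be told from background.

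The efflux arm was set against the synthesis arm on each array, as the mean log2 signal of Abca1, Abcg1 and Apoe minus that of the 16 synthesis genes. This value was 0.89 and 0.85 in knockout and 0.56 and 0.55 in control. The means were 0.87 ± 0.03 in knockout and 0.55 ± 0.01 in control (SD, n = 2 each), so the difference of 0.31 exceeded the spread between arrays, and it was 0.32 in replicate 1 and 0.30 in replicate 2. Only the difference between arrays can be read, since the signals of different probe sets have no common scale. The efflux mean changed by 0.24 and the synthesis mean by −0.07, so the efflux genes made up most of it. No p-value is given, because the genes were chosen with results of these data known. With 2 arrays against 2, an exact permutation test could not go below 0.333. A wider efflux list, with Nr1h3, Npc1, Npc2 and Lpl added, gave 0.15.

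**Figure D4:**
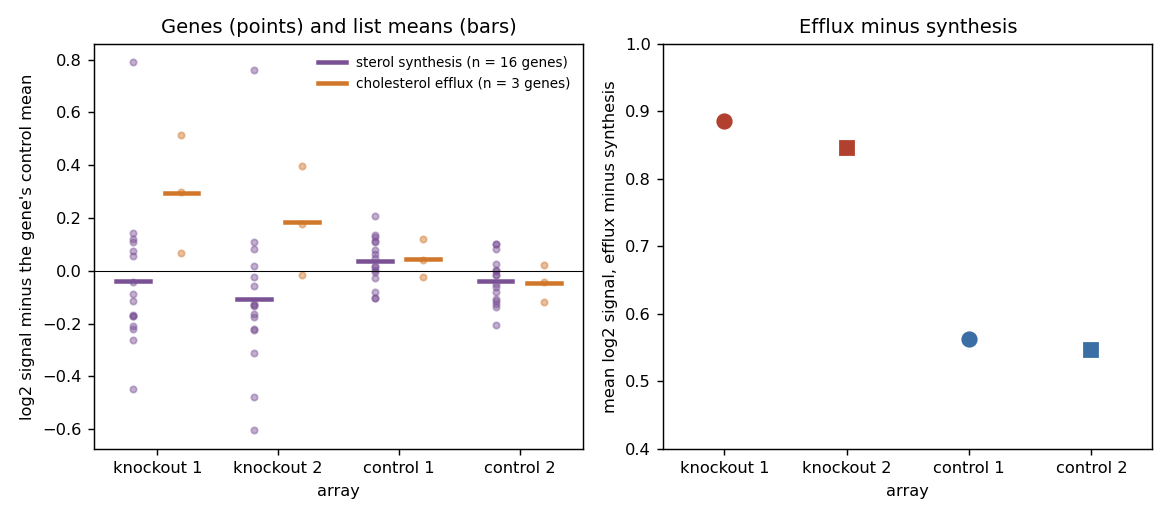
Efflux and synthesis genes on every array. At the left, points are genes and bars are list means of log2 signal minus each gene's control mean, for 16 synthesis and 3 efflux genes. At the right, points are the mean log2 signal of efflux genes minus that of synthesis genes, 0.89 and 0.85 in knockout and 0.56 and 0.55 in control.

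Of the genes that move sterols within the cell, Stard4 lay below control, as most synthesis genes did. Stard4 is a cytosolic sterol carrier and a known SREBP target, and it had 6.57 and 6.47 in knockout and 6.74 and 6.77 in control. Both knockout arrays lay below both controls, at a log2 difference of −0.24 (SE 0.10, 95% interval −0.48 to 0.01, limma adjusted p = 0.722). Npc1 and Npc2, which together export cholesterol from lysosomes, had 0.04 (95% interval −0.22 to 0.29) and −0.02 (95% interval −0.26 to 0.21), and their groups overlapped. Lpl, the lipase that releases fatty acids from lipoproteins, had 5.82 and 5.61 in knockout and 6.12 and 5.82 in control. The groups of Lpl overlapped slightly, at a log2 difference of −0.25 (SE 0.14, 95% interval −0.60 to 0.09). It was −0.10 without control replicate 1, −0.14 without knockout replicate 2 and −0.40 without control replicate 2. Its signal lay under the array medians on 3 of 4 arrays.

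**Figure D5:**
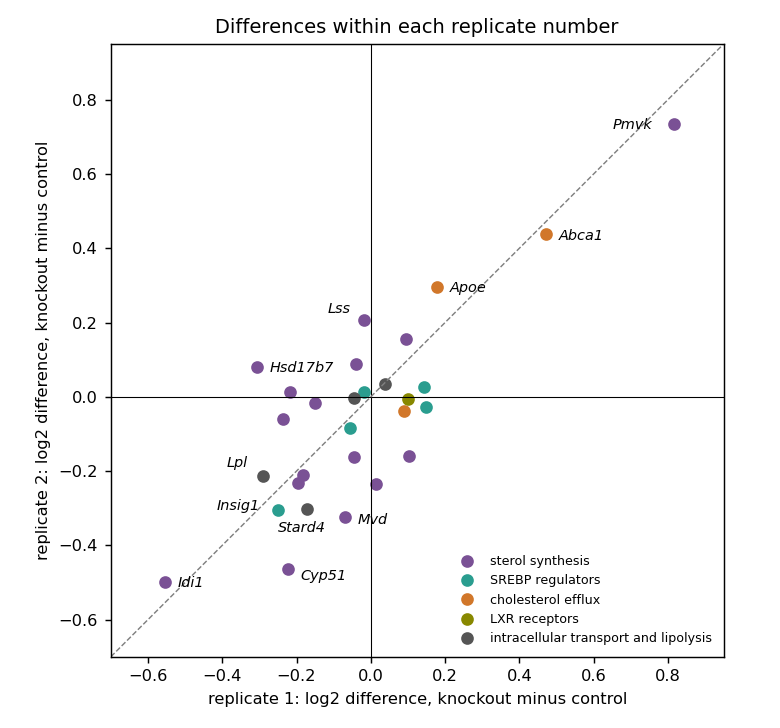
Log2 difference between knockout and control within replicate 1 (horizontal) and within replicate 2 (vertical) for the 29 genes, coloured by role. The dashed line marks equal values. Pmvk, Abca1, Apoe, Idi1 (at the probe set used), Insig1, Stard4 and Cyp51 keep their sign in both, and genes such as Hsd17b7 and Lss change sign.

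The synthesis genes also varied with replicate number. In 9 of 16, or 56.3%, the array of replicate 2 lay below that of replicate 1 in both genotypes, against 25.5% of all genes. The median of replicate 2 minus replicate 1 over the 16 genes was −0.05 in knockout and −0.07 in control, against 0.01 over all genes in each genotype. Sqle and Hmgcs1 were among them, with the array values given above. The number also marks the sex of the pools, and the part of sex in this was not tested.

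Other genes of the pathway, taken from lists of 44 genes of which 36 were measured, held 0 calls by limma and 2 with an unadjusted p under 0.05, or 5.56%, against 7.07% of all genes. Of them 18 lay below control and 18 above, with a median of −0.01. Ch25h, which makes an oxysterol that activates LXR and which macrophages express, had 4.77 and 5.13 in knockout and 4.55 and 4.34 in control. This gave a log2 difference of 0.51 (SE 0.15, limma adjusted p = 0.562), at a low signal. Cd36, a scavenger receptor for oxidised lipoproteins, had 4.38 and 4.11 in knockout and 4.64 and 4.49 in control, at −0.32 (SE 0.13, limma adjusted p = 0.705), also at a low signal.

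The 3 further synthesis genes measured, Msmo1, Acat1 and Ggps1, all lay below control, at −0.23, −0.16 and −0.11. Msmo1, which removes methyl groups from sterols after Cyp51, had both knockout arrays, at 7.44 and 7.31, below the controls, at 7.65 and 7.56. The 9 genes of SREBP processing and fatty acid synthesis had a median of −0.03, and the one with the smallest p was Elovl6, a fatty acid elongase, at 0.23 (limma adjusted p = 0.739). The 5 lipoprotein uptake genes had a median of −0.10. The 12 other efflux and LXR genes had a median of 0.01, led by Apoc1, an apolipoprotein, at 0.38 (limma adjusted p = 0.739). The signal of Apoc1 was low on every array and its controls lay 0.47 apart. Its difference was 0.56 in replicate 1 and 0.21 in replicate 2. The 7 genes of sterol storage, hydrolysis and oxysterol synthesis had a median of 0.01.

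Of 7 genes of the pigment epithelium, the tissue next to the retina, 6 lay below control and 0 were called by limma, with a median log2 difference of −0.16. Only Dct, a melanin enzyme, had an unadjusted p under 0.05, at −0.32, with both knockout arrays below both controls. The genes summed to 1397 and 1463 in knockout and 1796 and 1452 in control, mostly from Ttr. Without Ttr the sums were 309 and 299 in knockout and 407 and 321 in control, with control replicate 1 highest, and the mean log2 difference of all 7 genes was −0.33 in replicate 1 and −0.05 in replicate 2. Vascular genes summed to 497 and 502 in knockout and 492 and 451 in control, and lens genes to 195 and 230 in knockout and 198 and 218 in control. The erythrocyte gene Alas2 had a log2 difference of −0.12. Control replicate 1 also had the highest signal of Hmgcs1, Idi1 (at the probe set used), Sqle, Lss, Cyp51, Nsdhl, Hsd17b7, Sc5d and Dhcr7. It was highest too in Insig1, Msmo1, Acat1 and Ggps1. The other measured synthesis genes, Mvk, Pmvk, Mvd, Fdps, Fdft1, Tm7sf2 and Ebp, were highest on another array. The share of all genes highest on control replicate 1 was not counted here, so these lists have no baseline. The part of pigment epithelium in these levels, and in the differences of the synthesis genes and of Insig1, was not tested.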

How the data were processed

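Per the labels' protocols, total RNA was extracted with TRIzol LS and RNeasy columns, amplified to biotinylated cDNA with a NuGEN kit, and hybridised to 1 array per pool. The deposited table holds log2 values of 21897 probe sets per array, and the log2 scale was read from their range, 1.34 to 12.75. Affy and limma are named in the submitters' processing notes, with no statement of background correction or normalization, and the authors' values were used as deposited. The platform annotation gave 20877 probe sets 1 symbol, and the brightest probe set on average stood for each of 19421 genes. Genotypes were compared in R 4.3.3 with limma 3.58.1 (two-sided, lmFit then eBayes), fitting genotype alone, and p-values were adjusted by Benjamini-Hochberg over all genes, with calls at under 0.05. Intervals are moderated 95% intervals. The replicates are pools of different animals, and p-values use the spread between pools, moderated by the spread over all genes. Within each genotype that spread includes the difference between a pool with low Xist and a pool with high Xist. The number of arrays limits the precision. The fit was tested on simulated data with known log2 changes. It called 1.43% of changes of 0.5, 73.9% of changes of 1.0 and 98.4% of changes of 2.0.

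The genes, the lists and the motifs were chosen with earlier results of these data known. Array values are given for genes with an unadjusted p under 0.05 and for Hmgcs1, Sqle, Srebf2, Abca1, Abcg1 and Apoe, and, added after their values were seen, for Stard4, Nr1h3, Lpl, Msmo1, Ch25h and Cd36. Other pathway genes were named at an unadjusted p under 0.05, or else by the smallest p of their list. Alternatives were quantile normalization, median centring, a filter on dim genes, the mean of a gene's probe sets, a variance trend, a replicate block and leaving out each array.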

Additional observations from a re-analysis of the deposited data

How the results depend on the processing

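The count of genes called, 39, was 8 with the replicate number as a replicate block, 89 when genes below the median of mean signal were removed, 128 with a variance trend, and 0 to 11 when 1 array was left out. Among the 29 genes described here, 1 was called without the dim genes and 1 with the variance trend, Pmvk in both, and 0 in the other 8 alternatives, the replicate block included. With the replicate block 6 of the 29 had an unadjusted p under 0.05, against 5 without it. Of all genes, 8.27% had such a p with the block and 7.07% without it. The count among the 29 was 4 with the mean of each gene's probe sets, against 7.05% of all genes. It was 7 with quantile normalization and with a variance trend, against 7.78% and 7.53% of all genes. Without the dim genes it was 6 of 25, against 10.1% of the genes kept. This count, added after the data were seen, was 3 to 4 when 1 array was left out, and 3 without knockout replicate 2. Same-numbered arrays deviated together from their group means (r = 0.239 across genes, and 0.141 across autosomal genes), which with 2 pairs does not establish that they are paired.

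The efflux median of 0.24 ran from 0.12 to 0.36 when 1 array was left out. The difference of efflux and synthesis means, 0.31, was 0.27 with the mean of each gene's probe sets and 0.15 with the wider efflux list. The synthesis median stayed between −0.13 and −0.09 under all 10 alternatives. Of the 29 genes, 16 kept their sign under all 10. Idi1 turned to 0.12 with the mean of its probe sets. The other 12 had a difference that turned sign when 1 array was left out, over −0.22 to 0.017 in Mvk, −0.18 to 0.12 in Fdft1, −0.29 to 0.12 in Sqle, −0.032 to 0.22 in Lss, −0.25 to 0.025 in Hsd17b7, −0.089 to 0.14 in Sc5d, −0.019 to 0.14 in Srebf1, −0.056 to 0.051 in Scap, −0.015 to 0.068 in Abcg1, −0.11 to 0.21 in Nr1h3, −0.021 to 0.093 in Npc1 and −0.059 to 0.012 in Npc2. Others kept their sign but moved by over 1.5 times from their value with all arrays. They ranged over −0.31 to −0.12 in Hmgcs1, −0.30 to −0.094 in Mvd, −0.28 to −0.12 in Fdps, −0.48 to −0.21 in Cyp51, −0.21 to −0.0076 in Tm7sf2, −0.16 to −0.042 in Nsdhl, 0.077 to 0.17 in Ebp, −0.21 to −0.085 in Dhcr7, 0.038 to 0.13 in Insig2, 0.12 to 0.36 in Apoe and −0.40 to −0.10 in Lpl. The cause was not tested. Lss, Tm7sf2, Nr1h3 and Lpl were among the dim genes and have no value under that filter.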
